A study of Mus musculus with 8 samples.

Results

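The unfolded protein response was followed through 47 genes in islet RNA of 4 Control mice and 4 mice of the β-tetO-NICD line. The genes were taken from the deposited count table by their symbols, as 9 stress sensors and transcription factors, 17 chaperones and folding enzymes of the endoplasmic reticulum (ER), 9 genes of the ATF4-CHOP branch and 12 genes of ER-associated degradation (ERAD). All 47 were among the 32531 symbols of the table, and all 47 passed the filter on low counts that left 15082 genes for testing.

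β cells fold very large amounts of proinsulin, and the unfolded protein response matches the capacity of their ER to that load. Unfolded protein is sensed in the ER membrane by IRE1α (gene Ern1), PERK (Eif2ak3) and ATF6. IRE1α splices the mRNA of Xbp1, PERK slows translation and allows ATF4 to be made, and cleaved ATF6 enters the nucleus. XBP1 and ATF6 act on genes for chaperones and ERAD, whereas ATF4 acts on genes for amino acid supply and, through CHOP (Ddit3), on genes of stress-induced death.

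Both groups carried RIP-Cre, in which the insulin promoter limits Cre to β cells, and Rosa26-rtTA, the Dox-dependent activator that Cre switches on. Only β-tetO-NICD mice also carried tetO_NICD, which makes the intracellular domain of Notch1, the active form of the receptor. Both groups received doxycycline (Dox) for 8 weeks on a mixed C57BL/6J, 129X1/SvJ and BALB/c background, so a Control library differs from a β-tetO-NICD library by the transgene and not by Cre, rtTA or Dox. Whole islets were sequenced, so values sum over β cells and every other cell of the preparation. From these values alone, fewer cells of a type cannot be told apart from less RNA per cell. In stained islets of Dox-treated mice of this line, the study reports an unchanged ratio of β to α cells. It proposes that the disturbed arrangement of islet cells did not come from their loss or proliferation. Islet endothelial cells and macrophages are reported as unchanged too. The control mice for the cell ratio lacked Cre, unlike the Control group here.

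Library totals were 22430941 to 25950164 counts in Control and 21701223 to 26413146 in β-tetO-NICD islets. Levels are given as CPM, counts scaled to library size with TMM factors, where 3 counts, the floor used for absence, were at most 0.151 CPM. The β-tetO-NICD columns are numbered 1, 2, 4 and 5, and the libraries are called NICD 1, 2, 4 and 5 here. The sample labels run from 1 to 4, so NICD 4 and NICD 5 are column names that could not be tied to a single mouse of the group. Notch1, whose intracellular part the transgene encodes, was at 41.6 to 65.0 CPM in Control and 574 to 1322 CPM in β-tetO-NICD libraries, so the labels held for all 8. Summed CPM of 10 β cell markers was 157175 to 197769 in Control and 72403 to 172163 in β-tetO-NICD islets, and that of 6 α cell markers was 12079 to 43187 and 55548 to 70539, without overlap. Ins1 and Ins2 made most of the β cell sum and Gcg most of the α cell sum. Of the 10 β cell markers, 8 had negative log2 fold changes (β-tetO-NICD over Control), while Pdx1 and Nkx6-1 were at 0.04. All 6 α cell markers had positive ones. Summed CPM of 2 δ cell markers was 2279 to 6251 and 4785 to 13763, and that of 6 macrophage and leukocyte genes 128 to 162 and 193 to 261. Of these 6, only C1qa was without overlap, with means of 77.6 and 150 CPM. The others overlapped, with Adgre1 lower in β-tetO-NICD islets (log2 fold change −0.38). None of these genes was at 0 in every library, and the part of these shifts in the results was not tested. Counts of 26 acinar genes took 7.96% to 14.3% of Control and 7.10% to 20.5% of β-tetO-NICD libraries, the most in NICD 1. The Y-linked gene Eif2s3y had 1300 to 1527 counts in Controls 2 and 4 and 1465 in NICD 5, whereas no other library had more than 1. The study's methods name male mice for gene expression, which these counts do not match in those 5 libraries. In the libraries Control 1, 2 and 4 and NICD 1, the log2 deviation of a gene from its mean over libraries correlated positively with the length of its longest transcript, with Spearman's rho of 0.42 to 0.50 across 14998 genes. In Control 3 and NICD 2, 4 and 5 it was negative, at −0.52 to −0.18. These are called length classes below, and 3 of the 4 libraries of each group fall in opposite classes. Differences within the classes are given after the branches.

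Of the 47 genes, 2 (4.26%) differed between the groups at an adjusted p under 0.05 in edgeR's quasi-likelihood test, 1 higher and 1 lower, against 6.76% of all genes tested, 4.19% higher and 2.57% lower. Atf3, a stress-induced transcription factor, rose, and Edem1, which hands misfolded glycoproteins to degradation, fell. The share of genes called among the members was thus not above that of the table. The groups did not overlap in any library for 12 members (25.5%), against 16.1% of all genes. Of these, 10 were lower in β-tetO-NICD islets (Ern1, Hyou1, Canx, Pdia4, Pdia6, Dnajb9, Dnajc3, Edem1, Derl3 and Wfs1), against 7.92% of all genes lower without overlap. The other 2, Ppp1r15a and Atf3, were higher, against 8.22%. The log2 fold change, β-tetO-NICD over Control, was negative for 30 of 47 members with a median of −0.20, while 50.0% of all genes were negative and their median was 0.0007. At an unadjusted p under 0.05 were 18 members, against 31.6% of all genes. The map of all members in all libraries and the plot of their fold changes show the spread within groups beside these differences.

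How many members passed depended on the processing, and so did the share of all genes. DESeq2 called 14 members, 3 higher and 11 lower, against 18.2% of all genes, 9.92% higher and 8.26% lower. limma-voom called 3 (Atf3, Edem1 and Derl3) against 7.18%. Within edgeR, median-ratio scaling called 2 against 6.94%, upper-quartile scaling 1 against 7.68%, and leaving out the 10 most abundant genes 2 against 6.78%. Without a filter on low counts 0 were called against 4.49%, and with at least 10 counts in every library 1 against 7.56%. An acinar marker score as a covariate gave 3 (Derl3, Edem3 and Sel1l) against 6.42%, Eif2s3y presence gave 1 (Dnajb9) against 4.91%, and a block on the replicate number gave 4 against 6.43%. Without Control 1, 2, 3 or 4 the fits called 2, 0, 0 and 0 members, against 3.31%, 3.37%, 5.78% and 2.88% of genes. Without NICD 1, 2, 4 or 5 they called 14, 0, 0 and 0, against 33.2%, 2.14%, 2.52% and 4.05%. The 14 without NICD 1 were 2 higher and 12 lower, against 16.3% and 17.0% of genes. Within the 4 libraries of negative length correlation, where the 1 Control library is assumed to vary like the others, 0 were called against 0.404%, and within the 5 with at most 1 count of Eif2s3y 0 against 0.809%, both chosen after the data were seen. In the edgeR fits that called 0 members, 15 to 18 had an unadjusted p under 0.05, and 9 in the fit with 1 Control library.

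**Figure D1:**
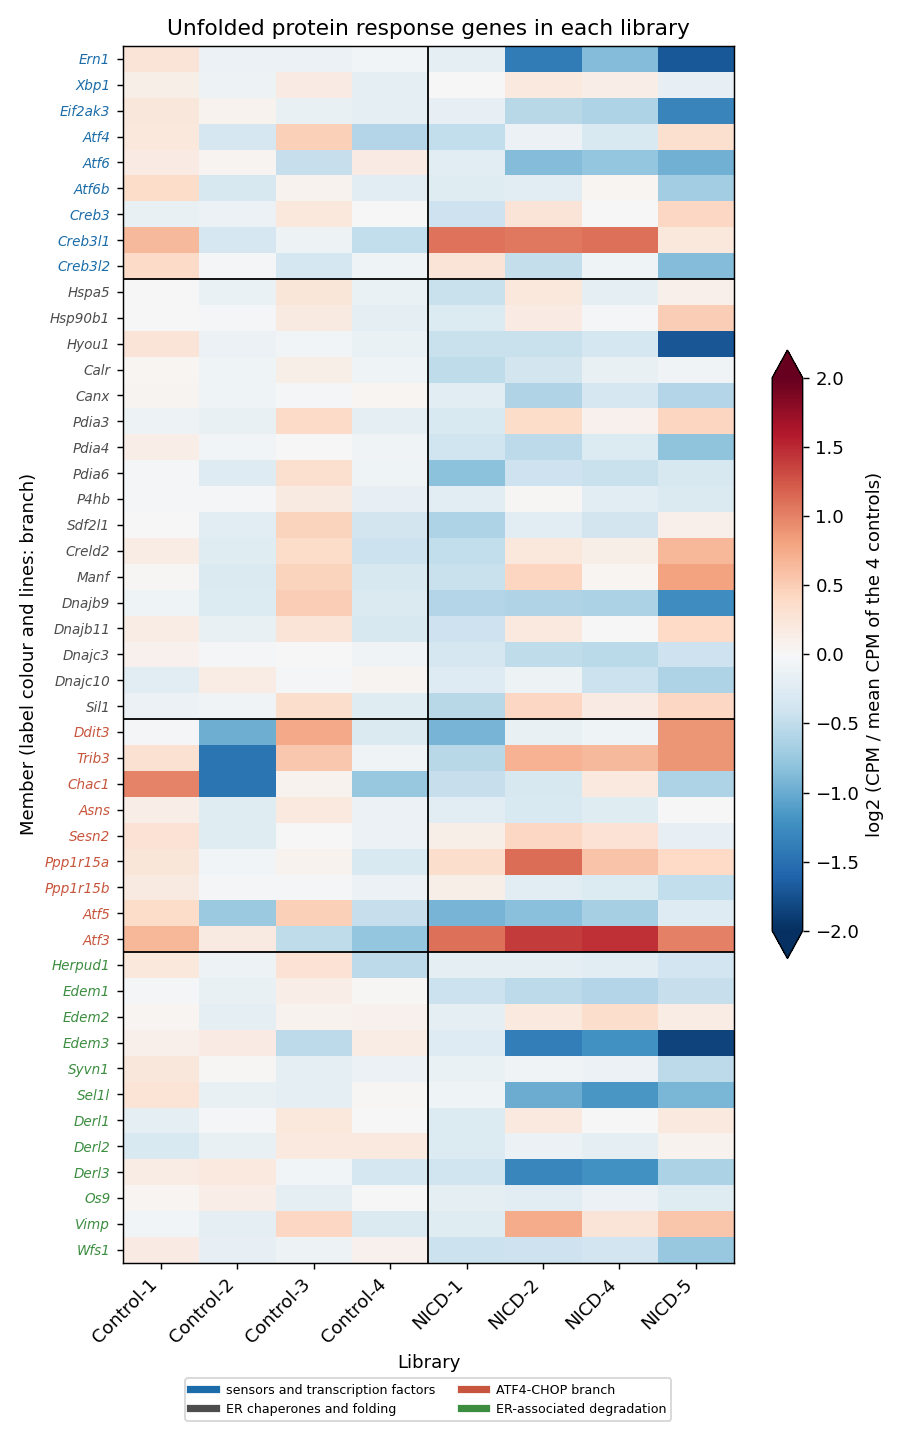
Each cell is the log2 ratio of a member's CPM in 1 library (column) to the mean CPM of the 4 Control libraries, with members in rows ordered by branch and values past 2 in either direction drawn at the end of the scale. Ern1, Edem3, Sel1l and Derl3 are lowest in NICD 2, 4 and 5, Atf3 is high in all 4 β-tetO-NICD libraries, and Ddit3, Trib3 and Chac1 vary among the Control libraries.

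**Figure D2:**
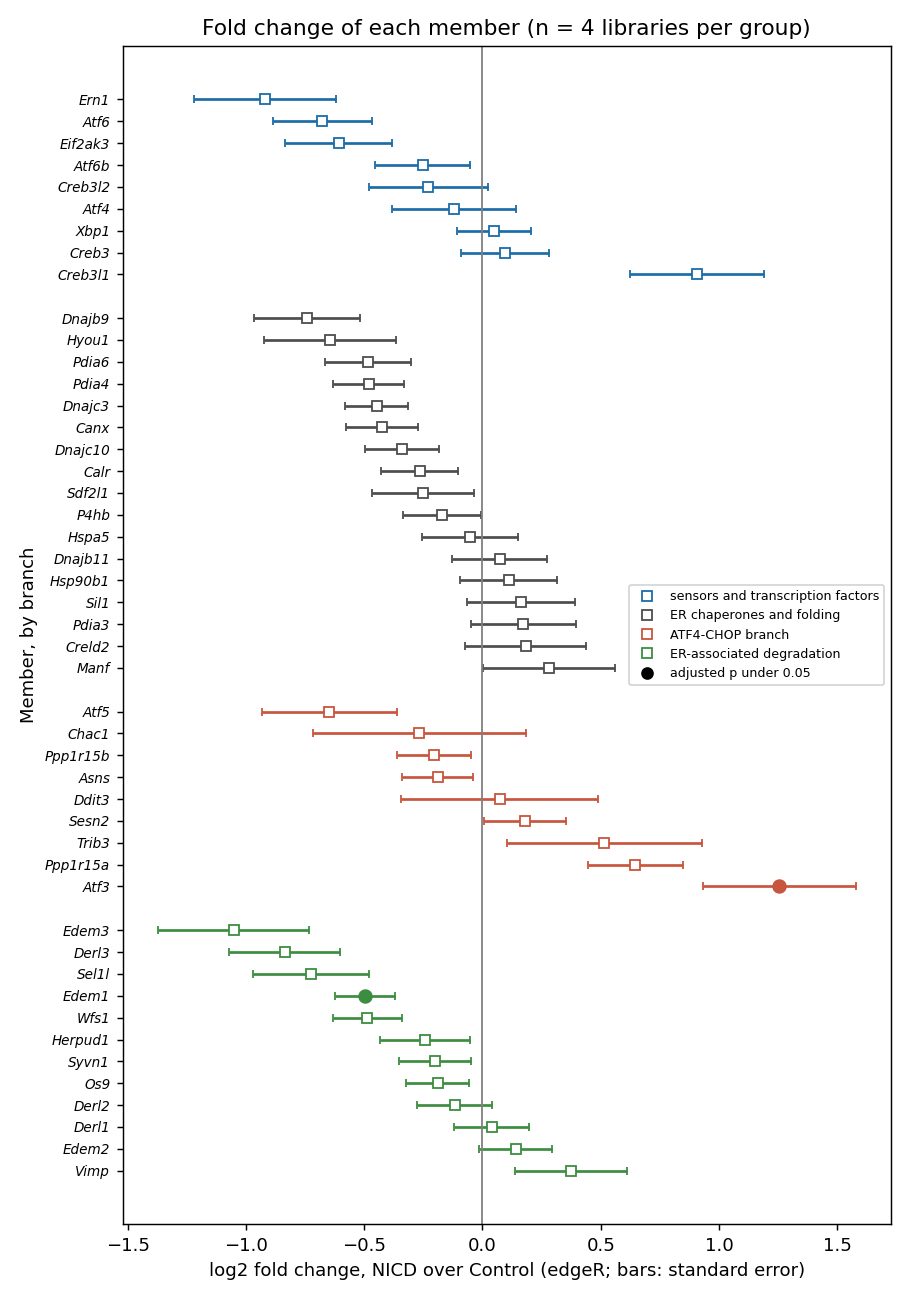
Points are log2 fold changes of β-tetO-NICD over Control from edgeR with bars of 1 standard error, 4 libraries per group, ordered within each branch. Filled circles are the 2 members past the threshold, Atf3 (1.25) and Edem1 (−0.50), and open squares are the other 45.

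Among the 9 sensors and factors, the sensors Ern1, Atf6 and Eif2ak3 had the most negative log2 fold changes. None of the 9 passed the edgeR threshold (6.76% of all genes did), 4 had an unadjusted p under 0.05, against 31.6% of all genes, and DESeq2 called 3, against 18.2%. Ern1, the IRE1α kinase and endoribonuclease, was at 317, 245, 245 and 255 CPM in Controls 1 to 4 and at 233, 100.4, 146 and 81.7 CPM in NICD 1, 2, 4 and 5. All 4 β-tetO-NICD values lay below the lowest Control, NICD 1 by a small margin, and the log2 fold change was −0.92 ± 0.30 (SE, n = 4, edgeR adjusted p = 0.0865). Atf6, the sensor cut in the Golgi to release a transcription factor, was at 176, 164, 115 and 178 CPM in Control and 135, 86.9, 92.4 and 81.4 CPM in β-tetO-NICD islets. NICD 1 lay above Control 3, and the log2 fold change was −0.68 ± 0.21 (SE, n = 4, adjusted p = 0.076). Eif2ak3, the PERK kinase that phosphorylates eIF2α, was at 78.2, 70.2, 60.3 and 57.9 CPM against 59.5, 45.3, 43.3 and 26.8 CPM, with a log2 fold change of −0.61 ± 0.23 (SE, n = 4, adjusted p = 0.114). Its groups overlapped by NICD 1 alone, and without that library the adjusted p for Ern1, Atf6 and Eif2ak3 was 0.00542, 0.0094 and 0.019, in a fit that called 33.2% of all genes.

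The other factors of the branch, some below these sensors and some parallel to ATF6, had values closer to 0 or of the opposite sign. Xbp1, the substrate of IRE1α, was at 354, 304, 366 and 286 CPM in Control and 326, 376, 361 and 292 CPM in β-tetO-NICD islets, so the groups lay over each other (log2 fold change 0.05 ± 0.16, SE, n = 4, adjusted p = 0.847). Counts per gene do not separate its spliced from its unspliced mRNA. Atf4, the translationally controlled factor below PERK, was at 262, 179.7, 313 and 150.4 CPM against 160.3, 209, 183 and 281 CPM. Its Control libraries spread over the whole range of the other group, and the log2 fold change was −0.12 ± 0.26 (SE, n = 4, adjusted p = 0.765). Atf6b, the paralog of Atf6, had a log2 fold change of −0.25, and Creb3 and Creb3l2, membrane-bound factors processed in the Golgi like ATF6, had 0.10 and −0.23. Creb3l1, of the same family, had the highest value of the branch, with 64.1, 32.3, 38.3 and 29.3 CPM in Control and 87.3, 84.8, 87.9 and 47.5 CPM in β-tetO-NICD islets. NICD 5 stood well below the other 3 and overlapped Control 1, and the log2 fold change was 0.91 ± 0.28 (SE, n = 4, adjusted p = 0.0769).

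**Figure D3:**
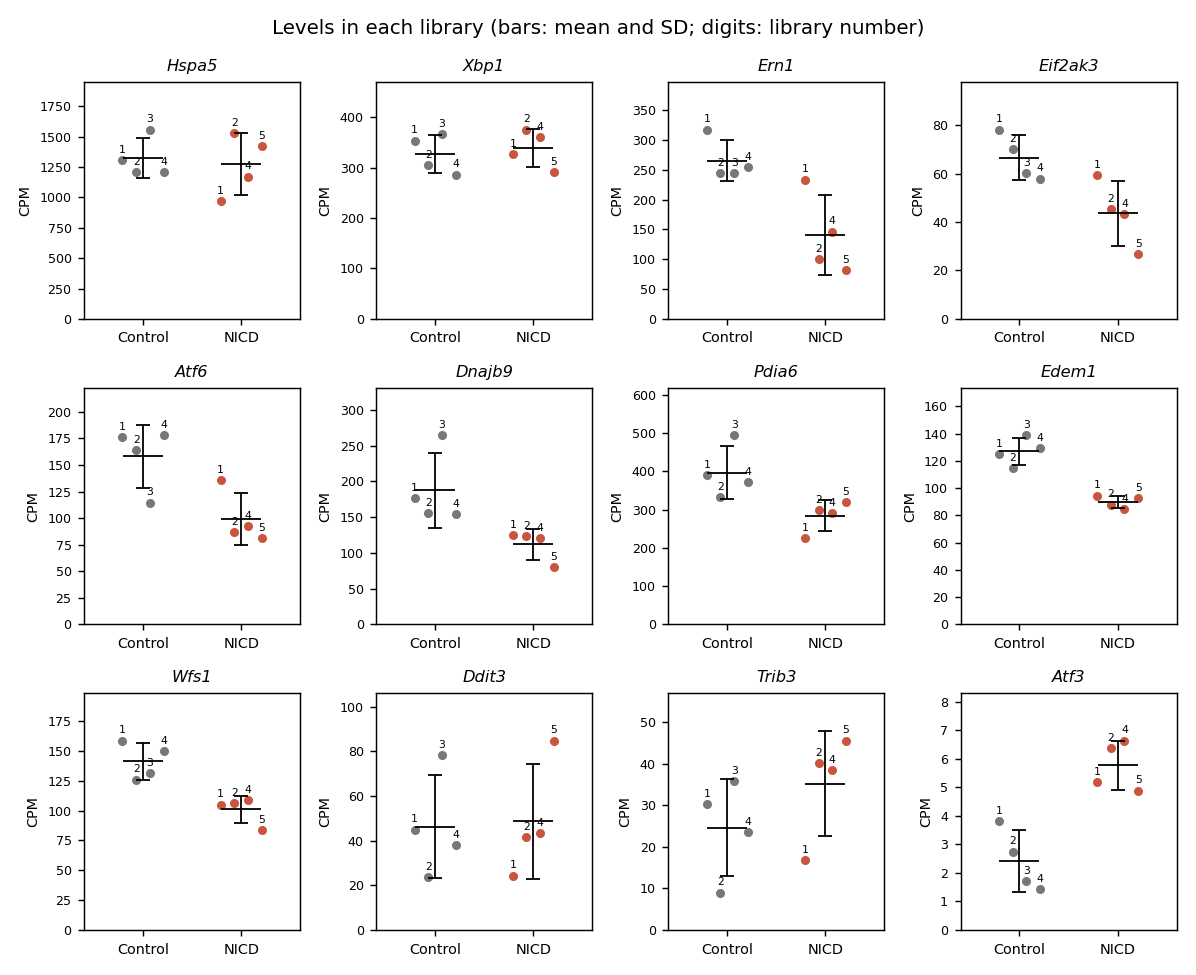
CPM of 12 members in each library on linear axes from 0, with the library's number above each point and bars of the mean and SD of 4 libraries. Hspa5 and Xbp1 overlap between groups, Ern1, Dnajb9, Pdia6, Edem1 and Wfs1 are lower and Atf3 is higher in every β-tetO-NICD library, and Ddit3 and Trib3 spread widely in both groups.

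None of the 17 ER chaperones and folding enzymes passed the edgeR threshold, while 6 had an unadjusted p under 0.05 (35.3%) and DESeq2 called 4, against 31.6% and 18.2% of all genes. Hspa5, the Hsp70 chaperone BiP that keeps the sensors inactive, was at 1311, 1208, 1559 and 1209 CPM in Control and 968, 1531, 1171 and 1425 CPM in β-tetO-NICD islets. The ranges lay over each other, and the log2 fold change was −0.05 ± 0.20 (SE, n = 4, adjusted p = 0.869). Hsp90b1, the Hsp90 of the ER lumen (GRP94), was at 1146, 1143, 1311 and 1023 CPM against 955, 1296, 1119 and 1618 CPM, with a log2 fold change of 0.11 ± 0.20 (SE, n = 4, adjusted p = 0.726). These chaperones were also the most abundant members by length, at 360 and 359 CPM per kilobase of transcript in Control, followed by the disulfide isomerases Pdia3 (312) and P4hb (310) and the lectin Calr (291), whereas Atf3 was lowest at 1.22.

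For 6 of the 17 (35.3%), every β-tetO-NICD library was below every Control library, against 7.92% of all genes. Dnajb9, an Hsp40 co-chaperone that targets IRE1α and ERAD clients, was at 176, 156, 265 and 154 CPM in Control and 125, 124, 121 and 79.7 CPM in β-tetO-NICD islets (log2 fold change −0.74 ± 0.22, SE, n = 4, adjusted p = 0.0713). Control 3 and NICD 5 were the extremes, and the other 6 libraries kept the groups apart as well. Dnajc3, the co-chaperone p58IPK, was at 336, 307, 319 and 301 CPM against 251, 222, 219 and 237 CPM (−0.45 ± 0.13, SE, n = 4, adjusted p = 0.0686). Pdia4 was at 162, 143, 148 and 140.3 CPM against 113, 103, 123 and 85.1 CPM (−0.48 ± 0.15, SE, n = 4, adjusted p = 0.076), and is a disulfide isomerase like Pdia6.

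Pdia6, known to bind and attenuate IRE1α, was at 389, 332, 495 and 372 CPM in Control and 225, 299, 292 and 319.7 CPM in β-tetO-NICD islets (−0.48 ± 0.18, SE, n = 4, adjusted p = 0.114). It was the only member past the threshold when the length class was a term in the fit, with a log2 fold change of −0.70 (adjusted p = 0.023), in a fit that called 4.03% of all genes. Canx, the membrane lectin calnexin, was at 446, 407, 424 and 443 CPM against 369, 284, 340.4 and 288 CPM (−0.42 ± 0.15, SE, n = 4, adjusted p = 0.103). Hyou1, the large Hsp70-like nucleotide exchange factor of BiP, was at 516, 397, 414 and 392 CPM against 316, 315, 338 and 131 CPM (−0.65 ± 0.28, SE, n = 4, adjusted p = 0.148), with NICD 5 far under the other 3. The remaining 9 folding genes overlapped between groups, with log2 fold changes from −0.34 for Dnajc10, a disulfide reductase, to 0.28 for Manf, a secreted ER stress factor. Calr, Sdf2l1 and P4hb were at −0.27, −0.25 and −0.17, and Dnajb11, Sil1, Pdia3 and Creld2 at 0.07, 0.16, 0.17 and 0.18, all with adjusted p of 0.272 or more except Dnajc10 at 0.164.

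Many chaperone promoters carry the ER stress response element (ERSE), which NF-Y and ATF6 bind together. Exact matches to CCAAT, any 9 bases and CCACG on either strand were sought from 250 bases before to 50 after the transcription start in RefSeq promoters (GRCm38.p6), where 40 of the members had an entry. The element was present in 9 of 40 members (22.5%) and in 37 of 27025 genes with an entry (0.137%). The members include classical targets of the element, so this share reflects how they were chosen. Of the 9 carriers, 4 (Canx, Dnajc3, Pdia6 and Derl3) were lower in β-tetO-NICD islets without overlap, against 7.92% of all genes, and 5 (Hspa5, Syvn1, Calr, Creld2 and Hsp90b1) overlapped. The 4 are shown with 2 of the 5 because the same element stands in promoters of both kinds. Capitals mark the element, in the direction of the gene.
Hspa5: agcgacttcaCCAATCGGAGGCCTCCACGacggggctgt
Canx: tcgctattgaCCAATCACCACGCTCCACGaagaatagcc
Dnajc3: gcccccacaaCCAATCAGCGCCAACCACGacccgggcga
Pdia6: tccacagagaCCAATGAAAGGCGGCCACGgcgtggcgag
Derl3: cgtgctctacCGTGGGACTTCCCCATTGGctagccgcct
Syvn1: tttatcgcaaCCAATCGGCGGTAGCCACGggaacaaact

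These stretches lie before the RefSeq start, at chr2:34772015-34772053 on the plus strand for Hspa5, within the span that GENCODE gives that gene, chr11:50325790-50325828 on the minus strand for Canx, chr14:118937817-118937855 on the plus strand for Dnajc3, chr12:17266481-17266519 on the plus strand for Pdia6, chr10:75893232-75893270 on the plus strand for Derl3, where the element runs on the opposite strand, and chr19:6046522-6046560 on the plus strand for Syvn1. The remaining carriers were Calr, Creld2 and Hsp90b1, the last with 2 copies. Log2 fold changes of the 9 ran from −0.84 to 0.18 with a median of −0.27, and 7 were negative. Of all 17 tested genes with the element, 0 passed the edgeR threshold, while 4 had an unadjusted p under 0.05 and DESeq2 called 3, against 31.6% and 18.2% of all genes. The shorter element ERSE-II (ATTGG, any base and CCACG) was found in 2 members, Herpud1 and Dnajb11, and in 0.0365% of all windows, and the XBP1 element TGACGTGG in no member and 0.676% of windows.

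In the ATF4-CHOP branch, 1 of 9 genes (11.1%) was called, higher, against 6.76% of all genes, 4.19% higher. At an unadjusted p under 0.05 were 3, and DESeq2 called 2, against 31.6% and 18.2% of all genes. The Control libraries differed among themselves more than for the other branches. The SD of log2 CPM over the 4 Control libraries had a median of 0.60 across these 9 genes, against 0.30, 0.19 and 0.19 for sensors, chaperones and ERAD and 0.26 for all genes. Atf3 (chr1:191170296-191218039, minus strand, GENCODE M21 on GRCm38) was at 3.83, 2.74, 1.70 and 1.42 CPM in Control and 5.18, 6.38, 6.64 and 4.89 CPM in β-tetO-NICD islets. Every β-tetO-NICD library was above every Control library, at a log2 fold change of 1.25 ± 0.32 (SE, n = 4, adjusted p = 0.0477), although at levels of a few CPM. Without 1 library at a time its log2 fold change stayed between 1.07 and 1.58, and it passed the threshold in 2 of the 8 fits, those without Control 1 and without NICD 1. It was 1.37 (adjusted p = 0.093) with the length class as a term and 1.01 (adjusted p = 0.0802) with the length offset, not past the threshold in either. The call also ended with the acinar score (adjusted p = 0.0585), with Eif2s3y presence (0.0767) and without a filter on low counts (0.0511). Ppp1r15a (GADD34), which directs the phosphatase that reverses PERK's phosphorylation, was at 50.0, 40.9, 44.2 and 34.1 CPM against 54.0, 91.9, 63.0 and 55.8 CPM. These groups did not overlap either, with NICD 1 close to Control 1, and the log2 fold change was 0.65 ± 0.20 (SE, n = 4, adjusted p = 0.0758).

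Ddit3 itself, which encodes CHOP, was at 44.9, 23.6, 78.2 and 37.9 CPM in Control and 24.3, 41.6, 43.5 and 84.7 CPM in β-tetO-NICD islets. Each group spanned more than 3-fold, Control 3 and NICD 5 were the highest, and the log2 fold change of 0.07 ± 0.42 (SE, n = 4, adjusted p = 0.915) leaves a wide interval. Trib3, the pseudokinase induced by CHOP, was at 30.3, 8.95, 35.8 and 23.6 CPM against 16.7, 40.1, 38.5 and 45.6 CPM (0.51 ± 0.41, SE, n = 4, adjusted p = 0.394). Chac1, a glutathione-degrading enzyme, was at 49.3, 8.95, 26.0 and 14.5 CPM in Control, a 5.51-fold range, and 16.0 to 28.2 CPM in β-tetO-NICD islets (log2 fold change −0.27 ± 0.45, SE, n = 4). Without 1 library at a time that value ran from −0.54 to 0.32, so its sign was not settled. Control 2 was lowest for Ddit3, Trib3 and Chac1 alike. Atf5, a factor translated like Atf4, was at 304, 142, 328 and 172 CPM against 124, 132, 149 and 198 CPM (−0.65 ± 0.29, SE, n = 4, adjusted p = 0.156). Asns (asparagine synthetase), Ppp1r15b (the constitutively expressed counterpart of Ppp1r15a) and Sesn2 (a leucine sensor) were at −0.19, −0.21 and 0.18.

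The amino acid response element to which ATF4 binds, searched as TTGCATCA on both strands, was present in 0.895% of all promoter windows and in 3 members, Atf3, Chac1 and Herpud1. They are shown because the same 8 letters, in capitals, stand before a RefSeq start of 1 gene that was called, Atf3, and of 2 that were not.
Atf3: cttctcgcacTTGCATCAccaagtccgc
Chac1: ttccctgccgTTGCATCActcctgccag
Herpud1: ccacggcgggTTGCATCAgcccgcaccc

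The Atf3 stretch lies at chr1:191183426-191183453 on the minus strand, before an internal start within the span of the gene given above, that of Chac1 at chr2:119351039-119351066 and that of Herpud1 at chr8:94386307-94386334, both on the plus strand (GRCm38.p6).

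Of the 12 ERAD genes, 1 (8.33%) was called, lower, against 6.76% of all genes, 2.57% lower. Negative log2 fold changes were found for 9 (75.0%), against 50.0% of all genes, and the median was −0.22. At an unadjusted p under 0.05 were 5, and DESeq2 called 5, against 31.6% and 18.2% of all genes. Edem1 (chr6:108828641-108859356, plus strand), a mannosidase-like lectin that takes glycoproteins out of the folding cycle, was at 125, 115, 139 and 129 CPM in Control and 94.4, 87.9, 84.8 and 92.6 CPM in β-tetO-NICD islets. All 4 β-tetO-NICD libraries were lower and lay close together, at a log2 fold change of −0.50 ± 0.13 (SE, n = 4, adjusted p = 0.0458). Without 1 library at a time it ran from −0.54 to −0.45 and passed the threshold in 1 of 8 fits, that without NICD 1. With the length offset it was −0.16 (adjusted p = 0.539) and not called, for a longest transcript of 6077 bases. With the length class as a term it was −0.52 (adjusted p = 0.051), and within the classes −0.38 and −0.65. The call also ended with the acinar score (adjusted p = 0.0598), Eif2s3y presence (0.0656), upper-quartile scaling (0.0694), no filter (0.0666), at least 10 counts in every library (0.0537) and the replicate block (0.0668). Derl3, a channel component induced by IRE1α and XBP1, was at 18.4, 19.1, 16.0 and 13.1 CPM against 12.7, 6.77, 7.17 and 10.7 CPM (−0.84 ± 0.24, SE, n = 4, adjusted p = 0.0605). Wfs1 (wolframin), whose loss causes Wolfram syndrome with diabetes and which regulates ATF6, was at 159, 126, 131 and 150.0 CPM against 105, 106, 109 and 83.8 CPM (−0.49 ± 0.15, SE, n = 4, adjusted p = 0.0713). Neither group pair overlapped.

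The groups of Edem3 and Sel1l overlapped by NICD 1 alone. Edem3, a mannosidase of the Edem1 family, was at 119.6, 124, 77.4 and 124 CPM in Control and 93.0, 42.4, 48.2 and 30.8 CPM in β-tetO-NICD islets (−1.05 ± 0.32, SE, n = 4, adjusted p = 0.0727). Sel1l, the scaffold of the HRD1 ubiquitin ligase, was at 339.6, 254, 249.6 and 286 CPM against 265, 142, 127 and 149 CPM (−0.73 ± 0.24, SE, n = 4, adjusted p = 0.0923). Their longest transcripts have 6327 and 6300 bases. Syvn1, the HRD1 ligase itself, was at −0.20, Herpud1, which brings it to the other subunits, at −0.24 and the lectin Os9 at −0.19. Herpud1 was at 249, 200.4, 264 and 149 CPM in Control and within 165 to 189.8 CPM in β-tetO-NICD islets. Derl2, Derl1, Edem2 and Vimp (the selenoprotein that ties the channel to p97) were at −0.12, 0.04, 0.14 and 0.37.

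The length classes divide each member's comparison into Controls 1, 2 and 4 against NICD 1, and Control 3 against NICD 2, 4 and 5. Each has a single library on 1 side, and the differences of mean log2 CPM are given with no test, as a description chosen after the data were seen. In both classes 35 of 47 members (74.5%) were lower in β-tetO-NICD islets, against 34.4% of all genes, and 4 were higher in both (Creb3l1, Sesn2, Ppp1r15a and Atf3), against 33.7%. Members share the single libraries NICD 1 and Control 3 and are not independent of each other. Lower in both were 16 of 17 chaperones, 10 of 12 ERAD genes, 5 of 9 sensors and factors and 4 of 9 ATF4-CHOP genes. The median difference of the chaperones was −0.33 in the first class and −0.34 in the second, and those of ERAD were −0.19 and −0.34.

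The split changed the reading of several members. Hspa5, at −0.05 over all libraries, was at −0.36 and −0.19 within the classes, and Calr, at −0.27, was at −0.47 and −0.32. Ddit3 was at 0.07 pooled and at −0.49 and −0.55 within. NICD 1 was the lowest and Control 3 the highest of all libraries for Hspa5 (968 and 1559 CPM) and Calr (445 and 693 CPM). For Ddit3, NICD 1 was the lowest of its group (24.3 CPM) and Control 3 the highest of its own (78.2 CPM). Pdia6 was at −0.69 and −0.71, and Wfs1 at −0.46 and −0.41, nearly equal in the 2 classes. Sel1l and Ern1, with long transcripts, differed little where NICD 1 was compared (−0.13 and −0.21) and far more in the other class (−0.85 and −1.20), and Edem3 was at −0.40 and −0.96. Xbp1 was at 0.06 and −0.10. Atf3 was higher by 1.04 and 1.75, and Creb3l1 by 1.15 and 0.88.

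**Figure D4:**
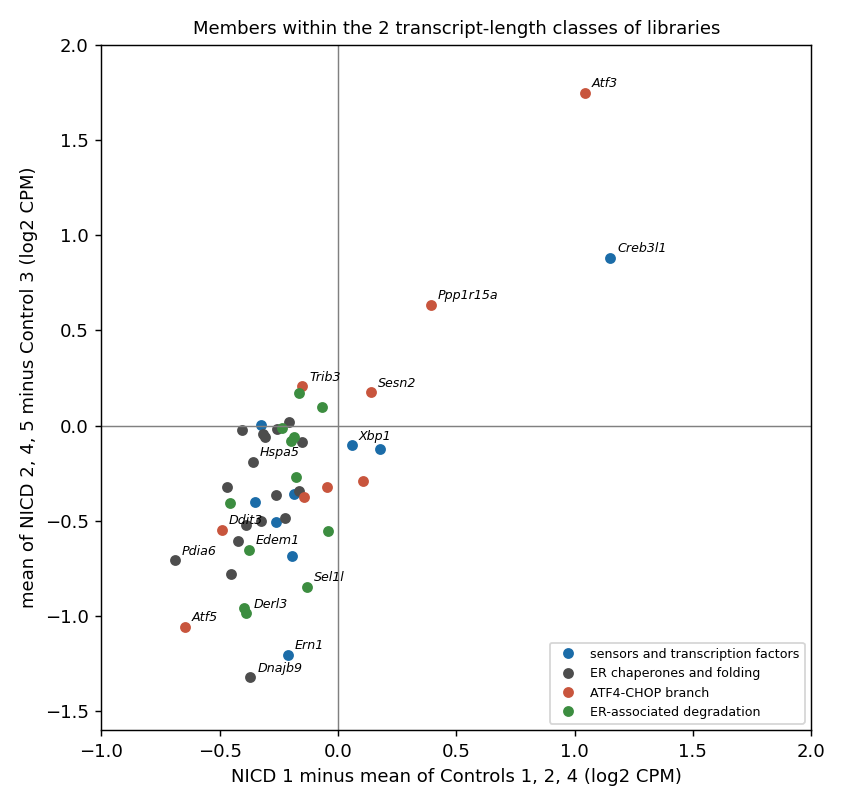
Each point is a member, coloured by branch, with the difference in mean log2 CPM between NICD 1 and Controls 1, 2 and 4 on the horizontal axis and between NICD 2, 4 and 5 and Control 3 on the vertical axis. The lower left region holds 35 of 47 members, and Atf3, Creb3l1, Ppp1r15a and Sesn2 lie at the upper right.

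Over all libraries, members with longer transcripts had more negative fold changes, as did the genes of the table. Spearman's rho between log2 fold change and transcript length was −0.40 across 47 members and −0.49 across 14998 genes, which are not independent replicates. The 24 members with transcripts of up to 2603 bases had a median log2 fold change of −0.04, where the 5097 tested genes of that length had 0.35. The 23 longer members had −0.23 and the 9901 longer genes −0.16. With the length class as a term in the fit, the rho was −0.05 across members and −0.27 across all genes, and the median log2 fold change of the members was −0.27. With an offset for length in each library the rho was 0.19 across members and 0.004 across all genes, and 8 members were called, all lower (Atf5, Calr, Derl3, Dnajb9, Edem3, Pdia4, Pdia6 and Sdf2l1), against 10.5% of all genes, 4.59% lower and 5.86% higher.

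The neighbouring pathways were read from 5 lists of 108 further genes, of which 106 were tested and 8 (7.55%) called, 3 higher and 5 lower, near the 6.76% of all genes (4.19% higher and 2.57% lower). In oxidative folding 2 of 15 were called, both lower. Ero1lb, the β cell-enriched oxidase that regenerates disulfide isomerases, was at 1210.2, 926, 879 and 1341 CPM in Control and 583, 329, 502 and 431 CPM in β-tetO-NICD islets. No library overlapped, and the log2 fold change was −1.24 ± 0.23 (SE, n = 4, adjusted p = 0.0144), passing in 7 of 8 fits that left out 1 library. Its paralog Ero1l was at 72.0, 82.0, 85.6 and 107 CPM against 59.2, 41.5, 44.7 and 40.4 CPM (−0.90 ± 0.18, SE, n = 4, adjusted p = 0.0181), and passed in 5 of 8. Both were lower within each length class too, Ero1lb by −0.97 and −1.08 and Ero1l by −0.53 and −1.02.

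In glycoprotein quality control and further ERAD genes, 2 of 21 (9.52%) were called, both lower, against 6.76% of all genes, 2.57% lower. Uggt1, the glucosyltransferase that sends unfolded glycoproteins back to calnexin and calreticulin, was at 347, 302, 239 and 311 CPM in Control and 194, 137, 158 and 112 CPM in β-tetO-NICD islets (−0.995 ± 0.20, SE, n = 4, adjusted p = 0.0195). Ube2j1, the ubiquitin-conjugating enzyme of the HRD1 complex, was within 88.6 to 91.7 CPM in Control and 62.3 to 69.0 CPM in β-tetO-NICD islets (−0.47 ± 0.11, SE, n = 4, adjusted p = 0.0409). Of 20 translocon, signal peptidase and N-glycosylation genes 0 were called by edgeR, where 3 had an unadjusted p under 0.05 and DESeq2 called 3, against 31.6% and 18.2% of all genes.

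Of 33 further ATF4 targets and amino acid response genes, 3 (9.09%) were called, 2 higher and 1 lower, against 6.76% of all genes, 4.19% higher and 2.57% lower. Slc7a3, a cationic amino acid transporter, was at 3.09, 3.08, 2.45 and 4.02 CPM in Control and 7.94, 12.5, 10.9 and 16.2 CPM in NICD 1, 2, 4 and 5. A log2 fold change of 1.91 ± 0.26 (SE, n = 4, adjusted p = 0.00318) passed in all 8 fits that left out 1 library. Phgdh, the first enzyme of serine synthesis, was within 16.9 to 32.8 CPM in Control and 34.5 to 76.5 CPM in β-tetO-NICD islets (1.23 ± 0.30, SE, n = 4, adjusted p = 0.0416), and Eprs, a tRNA synthetase, within 185 to 231 CPM and 120.3 to 154 CPM (−0.60 ± 0.15, SE, n = 4, adjusted p = 0.0421). The other 30 did not pass, among them Psat1 and Psph, which follow Phgdh in the same synthesis, at 0.26 and 0.39. Among 17 stress kinases, proteases and death genes, 1 (5.88%) was called, against the same 6.76% of all genes. It was Txnip, a thioredoxin inhibitor, at 227 to 311 CPM in Control and 382 to 532 CPM in β-tetO-NICD islets (0.71 ± 0.17, SE, n = 4, adjusted p = 0.0409). Of the 8 fits that left out 1 library, Uggt1 passed in 3, Phgdh, Eprs and Txnip in 2 each and Ube2j1 in 1. With the length class as a term Ube2j1, Phgdh, Eprs and Txnip were not called (adjusted p = 0.0555, 0.113, 0.0885 and 0.071), and with the length offset Eprs was not (adjusted p = 0.150). With the acinar score as a covariate Ube2j1 and Txnip were not called (adjusted p = 0.0553 and 0.0561), nor were Ube2j1, Eprs and Txnip with Eif2s3y presence (adjusted p = 0.063, 0.0694 and 0.0733).

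**Figure D5:**
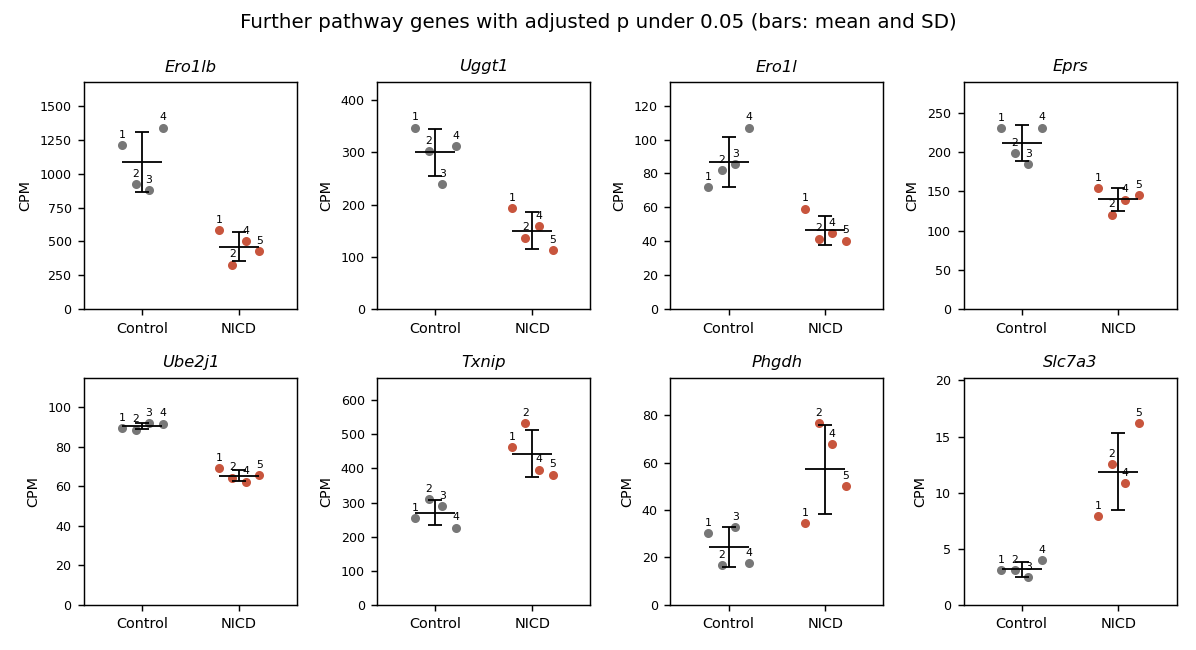
CPM in each library of the 8 further pathway genes past the threshold, on linear axes from 0, with the library's number above each point and bars of the mean and SD of 4 libraries. Ero1lb, Uggt1, Ero1l, Eprs and Ube2j1 are lower and Txnip, Phgdh and Slc7a3 higher in all 4 β-tetO-NICD libraries.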

How the data were processed

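The authors made stranded poly(A) libraries and pseudoaligned them with Kallisto to the mouse transcriptome (GRCm38). They deposited whole-number counts per gene symbol, not normalized, for 4 Control and 4 NICD libraries. Versions and how counts were made whole are not given in the sources used here. The authors' deposited comparison (log2 fold change, average expression, t, p-value, adjusted p-value, B and −log10 p) was not used. Columns were assigned by name, and NICD 4 and 5 to the group only. Islets of 4 mice per group were used per the study's methods, so p-values measure the spread between mice together with that of library preparation.

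Genes that reached 10 counts in 4 or more of the 8 libraries were tested in R 4.3.3 with edgeR 4.0.16 (TMM, quasi-likelihood test, no covariate), with Benjamini-Hochberg adjustment over all 15082 and a threshold of 0.05. DESeq2 1.42.0, limma-voom (limma 3.58.1), other scalings and filters, covariates, a length term or offset, a replicate block and leave-one-out fits were alternatives. On simulated counts with 200 changed genes of 14929, edgeR recovered 58.0% with 2.52% false calls, 28.0% of the 2-fold and 88.0% of the 4-fold changes. DESeq2 recovered 72.5% with 16.2% false. The simulation drew each gene independently, without the differences in length trend, acinar share or Eif2s3y between libraries. Its shares of false calls may therefore not hold for these data. Chi-square per gene between libraries of a group was at least 31.5 over genes with at least 20 counts, so all counted singly. Totals of 21701223 counts or more leave little counting error for members, Atf3 apart. The members and lists were chosen with earlier results of these data known. Every member is accounted for, with values in each library for those called, those whose groups do not overlap and the main sensors and effectors.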

Additional observations from a re-analysis of the deposited data

Results flagged for a closer look

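In 10 of 94 member-by-group sets of 4 libraries, a single library lay farther from the others than the 95% limit of Dixon's ratio of gap to range. Chance alone gives about 1 set in 20, or 4.7 of 94. In 5 of the 10 the library was NICD 5, always the lowest. It had 47.5 CPM of Creb3l1 where the other β-tetO-NICD libraries had 84.8 to 87.9 (ratio 0.925), 131 CPM of Hyou1 against 315 to 338 (0.891), 79.7 CPM of Dnajb9 against 121 to 125 (0.913), 41.6 CPM of Syvn1 against 54.2 to 56.7 (0.831) and 83.8 CPM of Wfs1 against 105 to 109 (0.855). NICD 1 was highest for Sel1l, with 265 CPM against 127 to 149 (0.838).

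Among Control libraries, Control 3 was highest for Pdia3, with 1127 CPM against 752 to 803 (0.863), and lowest for Edem3, with 77.4 CPM against 119.6 to 124 (0.907). Control 1 was highest for Ern1, with 317 CPM against 245 to 255 (0.862), and Control 2 lowest for Edem2, with 124 CPM against 147 to 151 (0.848).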

How the results depend on the processing

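edgeR called 1020 genes and 2 members (1 higher, 1 lower). DESeq2 called 2739 genes and 14 members (3 higher, 11 lower), and limma-voom 3 members, 2 of them lower. Upper-quartile scaling or at least 10 counts in every library left 1 member, Atf3, and 0 lower, and no filter left 0, 0 higher and 0 lower. With the acinar score 0 members were higher and 3 lower. With Eif2s3y as a covariate 1 was called and 0 higher, with the length class as a term 608 genes and 1 member, 0 higher, and with the length offset 1577 genes and 8 members, 0 higher and 8 lower. The fits added after the data were seen called 61 genes in the libraries of negative length correlation and 122 in those with at most 1 count of Eif2s3y, with 0 members, 0 higher and 0 lower in either. Leaving out 1 library at a time gave 319 to 4954 genes and 0 to 14 members, 0 to 2 higher and 0 to 12 lower. The maxima came without NICD 1, where 33.2% of all genes were called, and 6 of the 8 fits called 0 members.

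With the replicate block 4 members were called (Atf3, Edem3, Ern1 and Sel1l), 3 of them lower. The block set numbers 1 and 2 apart and took the other libraries together. Deviations of same-numbered libraries from their group means correlated at 0.28 for number 1 and −0.09 for number 2. Control 1 and NICD 1 share a length class and Control 2 and NICD 2 do not, so these values cannot settle whether the numbers pair the libraries.

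Signs turned only for members that had not passed the threshold. With the length class as a term these were Creb3 (−0.16), Creb3l2 (0.039), Creld2 (−0.18), Ddit3 (−0.50), Derl1 (−0.14), Dnajb11 (−0.18), Hsp90b1 (−0.086), Manf (−0.12), Pdia3 (−0.12), Sil1 (−0.21), Trib3 (−0.052) and Xbp1 (−0.021). With the length offset they were Creb3 (−0.19), Creb3l2 (0.15), Creld2 (−0.26), Ddit3 (−0.52), Derl2 (0.038), Dnajb11 (−0.068), Edem2 (−0.041), Hspa5 (0.015), Ppp1r15b (0.064), Sil1 (−0.17), Vimp (−0.10) and Xbp1 (−0.15). Xbp1 was at −0.021 with Eif2s3y, Hspa5 at 0.026 with upper-quartile scaling and Chac1 at 0.0062 with limma-voom. Without 1 library the log2 fold change ran from −0.30 to 0.077 for Atf4, −0.54 to 0.32 for Chac1, −0.019 to 0.23 for Creb3, −0.020 to 0.35 for Creld2, −0.33 to 0.45 for Ddit3, −0.014 to 0.13 for Derl1, −0.048 to 0.21 for Dnajb11, −0.037 to 0.22 for Hsp90b1, −0.15 to 0.061 for Hspa5 and −0.0063 to 0.12 for Xbp1. The cause was not tested. Depth limits Atf3 most, at 1.42 to 6.64 CPM.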
